A study of Gallus gallus with 15 samples.

Results

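The genes described here are those of bile acid synthesis, conjugation and transport and of their control in chicken liver, chosen by symbol. Of 9 genes sought, 7 were measured: CYP7A1, CYP8B1, CYP27A1, AKR1D1, BAAT, NR1H4 and NR0B2. Each was read by 1 array feature with a single symbol, out of 18308 features and 11528 named genes in all. No feature carried the single symbol of SLC10A1, which takes bile salts up from blood, or of ABCB11, the bile salt export pump, and neither was analysed here. The platform annotation pairs the 7 features with Entrez gene IDs 414834 (CYP7A1), 425055 (CYP8B1), 431683 (CYP27A1), 418107 (AKR1D1), 769879 (BAAT), 373902 (NR1H4) and 768353 (NR0B2).

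Liver RNA of 15 male chickens was measured with 1 array per bird, to describe how expression differs between breeds. The birds came from 4 Korean native breeds, Yeonsan Ogye, Hyunin Black, Hwangbong and Hoengseong Yakdak, and from White Leghorn as the control breed, with 3 birds in each. All hatched from eggs of local farms, were raised on 1 farm with free access to feed, and were 13 weeks old. The labels name no treatment and no engineered allele. The number of farms or parents behind a breed and the hour of sampling are not given in the sources used here.

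The liver makes bile acids from cholesterol. CYP7A1 starts and limits the classical route, CYP8B1 adds the hydroxyl group that separates cholic acid from chenodeoxycholic acid, AKR1D1 sets the bent ring system, and CYP27A1 opens the side chain and also starts an alternative route. BAAT then joins the acid to taurine or glycine in mammals. In mammals, bile acids bind NR1H4 (the receptor FXR), which raises NR0B2 (the repressor SHP), and SHP lowers CYP7A1. CYP7A1 is also known in mammals to follow feeding and the daily cycle.

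All values are log2 expression after RMA normalisation, and all differences are differences of these log2 values. Array medians lay between 6.12 and 6.20, but normalisation brings medians together, so they cannot show whether an array stood apart. Arrays correlated with each other at 0.977 to 0.991 over all features. White Leghorn bird 1 had the lowest mean correlation with its own breed (0.984) and with the other breeds (0.979). The mean of 17 hepatocyte marker genes lay between 11.95 and 12.09 in every bird, and none of these markers passed the test among breeds. Markers such as ALB (mean 13.80, within-breed SD 0.026) lay near the highest value of any feature, 14.52. An even mean of such bright genes therefore need not mean an even share of hepatocytes. In whole liver, fewer cells of a type and less RNA per cell cannot be told apart.

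None of the 7 bile acid genes passed the test among the 5 breeds, where 1.6% of all features passed (limma moderated F, Benjamini-Hochberg adjusted p under 0.05). BAAT had the largest F (5.09, adjusted p = 0.163), followed by AKR1D1 (4.81, adjusted p = 0.176) and CYP7A1 (3.64, adjusted p = 0.259). These 3 had an unadjusted p under 0.05, as did 16.1% of all features. The other 4 genes had F values of 1.12 (NR0B2), 1.01 (CYP27A1), 0.83 (NR1H4) and 0.29 (CYP8B1), against a median of 1.3 over all features. A gene needed an F of about 9.09 to pass. With 3 birds per breed, the width of each interval below, and not the missing call, says how large a difference could still be.

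None of the 7 genes passed in any single comparison either, so no neighbours in the order of breeds differed past the threshold for any of them. Against White Leghorn the share of all features that passed was 0.191% for Yeonsan Ogye, 0.164% for Hyunin Black, 0.579% for Hwangbong, 0.552% for Hoengseong Yakdak and 0.432% for the mean of the 4 native breeds. Between native breeds it was 0.0492% for Hyunin Black against Yeonsan Ogye, 0.317% for Hwangbong against Yeonsan Ogye and 0.371% for Hwangbong against Hyunin Black. For Hoengseong Yakdak it was 0.317% against Yeonsan Ogye, 0.295% against Hyunin Black and 1.46% against Hwangbong. With shares this low, 0 of 7 does not set these genes apart from other features. Over the 10 pairs of breeds and 7 genes there were 70 tests, which share birds. Of these, 10 (14.3%) had an unadjusted p under 0.05, against 10.9% over all features.

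**Figure D1:**
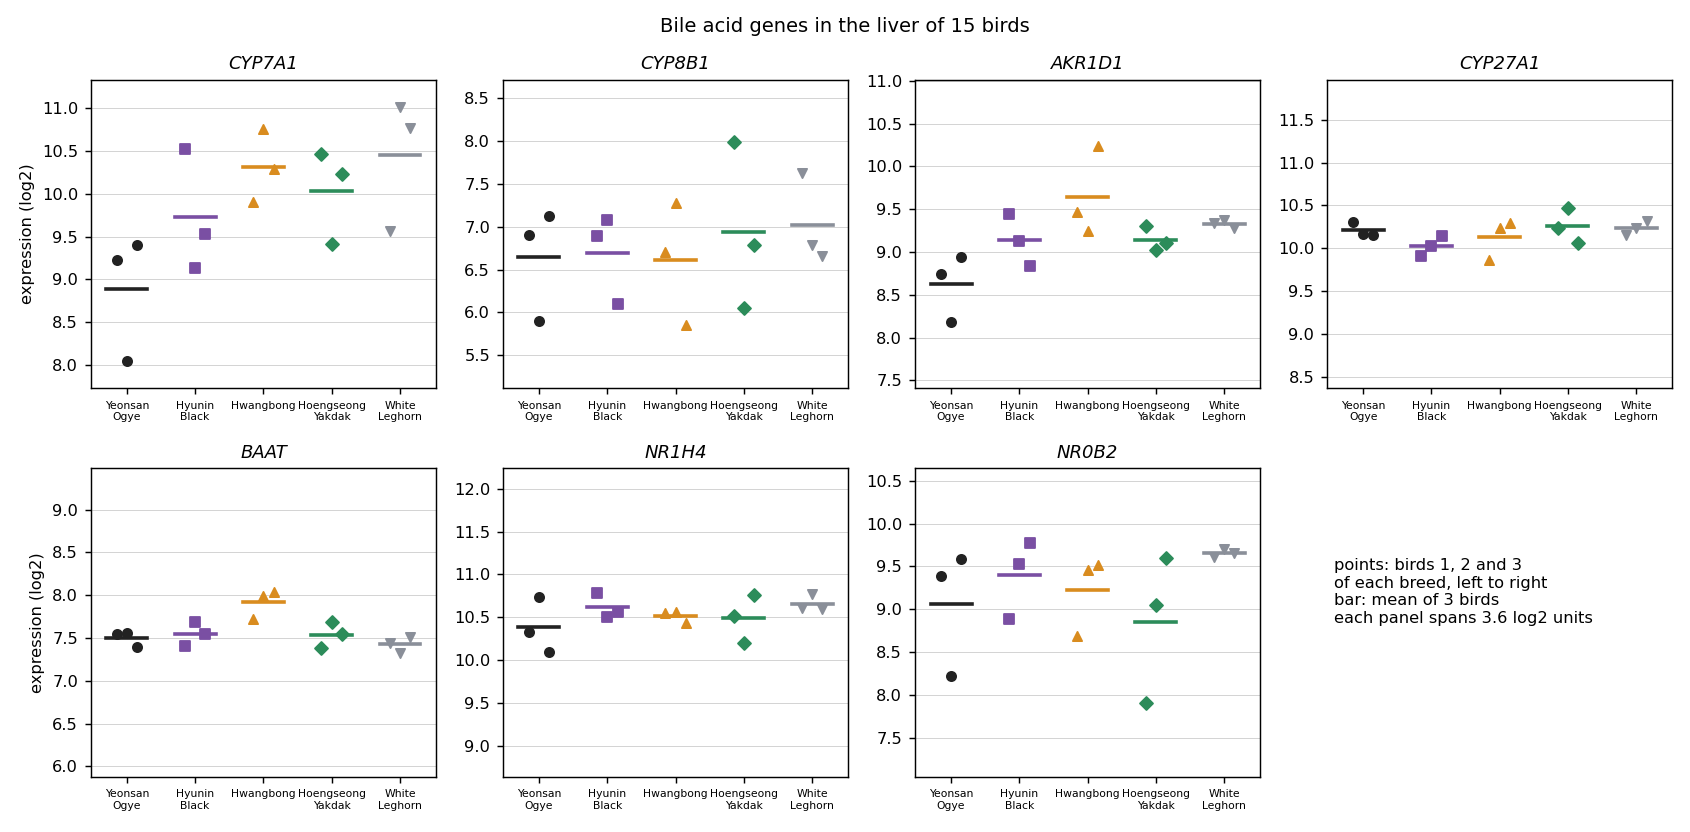
Log2 expression (vertical axis) of the 7 bile acid genes in each of the 15 birds, by breed, with the mean of 3 birds as a bar. Every panel spans the same number of log2 units, so that the wide scatter of CYP7A1, CYP8B1 and NR0B2 between birds of one breed can be set beside the narrow scatter of CYP27A1 and BAAT.

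CYP7A1, the first and rate-limiting enzyme, spread most between birds of all 7 genes. Its log2 expression was 9.22, 8.05 and 9.41 in Yeonsan Ogye, 10.52, 9.14 and 9.53 in Hyunin Black, 9.90, 10.76 and 10.28 in Hwangbong, and 10.46, 9.42 and 10.23 in Hoengseong Yakdak, against 9.57, 11.02 and 10.77 in White Leghorn. The 3 Yeonsan Ogye birds lay below all 3 White Leghorn birds, below all Hwangbong birds and below all Hoengseong Yakdak birds, with the top Yeonsan Ogye bird next to the lowest of the last. The other native breeds overlapped White Leghorn. The lowest and the highest bird, both numbered 2 in their breeds, were 2.97 log2 units apart, a 7.84-fold range.

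Breed means of CYP7A1 were 8.89 ± 0.74 in Yeonsan Ogye, 9.73 ± 0.71 in Hyunin Black, 10.31 ± 0.43 in Hwangbong and 10.04 ± 0.55 in Hoengseong Yakdak, against 10.45 ± 0.78 in White Leghorn (SD, n = 3 each). From high to low the order was White Leghorn, Hwangbong, Hoengseong Yakdak, Hyunin Black and Yeonsan Ogye. The difference of Yeonsan Ogye from White Leghorn was -1.56 ± 0.46 (SE; 95% interval -2.55 to -0.57; limma adjusted p = 0.275), a mean 2.95-fold higher in White Leghorn. That of Hyunin Black was -0.72 (adjusted p = 0.570), that of Hoengseong Yakdak -0.41 (adjusted p = 0.780) and that of Hwangbong -0.14 (adjusted p = 0.943). The sign of the Hwangbong value turned when White Leghorn bird 2, White Leghorn bird 3 or Hwangbong bird 1 was left out. The Hyunin Black value ranged from -1.17 to -0.43 and the Hoengseong Yakdak value from -0.86 to -0.10 as each bird was left out, with White Leghorn bird 1 and, at the other end, bird 2 of the native breed giving the extremes. Within the native breeds, Hwangbong exceeded Yeonsan Ogye by 1.42 ± 0.46 (95% interval 0.44 to 2.41; adjusted p = 0.241) and Hoengseong Yakdak exceeded it by 1.14 ± 0.46 (adjusted p = 0.383), or by 0.72 without Yeonsan Ogye bird 2.

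The spread of CYP7A1 within a breed, pooled over breeds, had an SD of 0.65, which is larger than that of 98.7% of features. The median feature had 0.187. CYP7A1 was thus among the genes that differ most between individual birds of one breed, and the breed differences above are to be read against that. No cell type marker measured here passed the test between Yeonsan Ogye and White Leghorn. The hepatocyte list, with the limits given above, averaged 11.99 to 12.03 in Yeonsan Ogye birds and 12.02 to 12.04 in White Leghorn birds.

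CYP8B1, the 12-alpha-hydroxylase that decides how much cholic acid is made, varied somewhat more than CYP7A1 within breeds and hardly between them. Its log2 expression was 6.91, 5.90 and 7.13 in Yeonsan Ogye, 6.89, 7.09 and 6.1 in Hyunin Black, 6.71, 7.28 and 5.85 in Hwangbong, and 7.99, 6.06 and 6.79 in Hoengseong Yakdak, against 7.63, 6.79 and 6.66 in White Leghorn. Every native breed held 1 bird between 5.85 and 6.1, and every pair of breeds overlapped. Breed means lay between 6.62 ± 0.72 in Hwangbong and 7.03 ± 0.52 in White Leghorn (SD, n = 3 each), and the within-breed SD of 0.70 exceeded that of 99% of features. The largest difference between any pair of breeds was 0.41, and the widest 95% interval over the pairs still reached 1.46.

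AKR1D1, the steroid 5-beta-reductase, had log2 values of 8.74, 8.19 and 8.94 in Yeonsan Ogye, 9.44, 9.13 and 8.84 in Hyunin Black, 9.46, 9.24 and 10.24 in Hwangbong, and 9.30, 9.02 and 9.10 in Hoengseong Yakdak, against 9.34, 9.37 and 9.28 in White Leghorn. The Yeonsan Ogye birds again lay below every bird of Hwangbong, Hoengseong Yakdak and White Leghorn, while 1 Hyunin Black bird overlapped them. White Leghorn was the tightest group, with an SD of 0.04, and Hwangbong the widest, with 0.52.

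Mean AKR1D1 was 9.65 in Hwangbong, 9.14 in Hoengseong Yakdak, 9.14 in Hyunin Black and 8.62 in Yeonsan Ogye, against 9.33 in White Leghorn. Hwangbong exceeded Yeonsan Ogye by 1.02 ± 0.24 (SE; 95% interval 0.51 to 1.54; limma adjusted p = 0.0968), or 2.03-fold, which missed the threshold. Yeonsan Ogye differed from White Leghorn by -0.71 ± 0.24 (95% interval -1.22 to -0.19; adjusted p = 0.372). The difference of Hwangbong from Yeonsan Ogye was 0.73 without Hwangbong bird 3. That of Yeonsan Ogye from White Leghorn was -0.49 without Yeonsan Ogye bird 2. For the other native breeds the difference from White Leghorn was 0.32 in Hwangbong (adjusted p = 0.636), -0.19 in Hyunin Black (adjusted p = 0.806) and -0.19 in Hoengseong Yakdak (adjusted p = 0.815). The first was 0.02 without Hwangbong bird 3, and the Hyunin Black value was -0.04 without its bird 3.

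CYP27A1, the mitochondrial sterol 27-hydroxylase, had the narrowest range of the 7 genes, 0.61 over the 15 birds. It had 10.31, 10.17 and 10.16 in Yeonsan Ogye, 9.91, 10.02 and 10.14 in Hyunin Black, 9.86, 10.24 and 10.29 in Hwangbong, and 10.24, 10.47 and 10.06 in Hoengseong Yakdak, against 10.15, 10.23 and 10.32 in White Leghorn. The Hyunin Black birds lay just below all White Leghorn and all Yeonsan Ogye birds, and every other pair of breeds overlapped. Mean CYP27A1 was 10.26 ± 0.21 in Hoengseong Yakdak, 10.21 ± 0.08 in Yeonsan Ogye, 10.13 ± 0.24 in Hwangbong and 10.03 ± 0.12 in Hyunin Black, against 10.24 ± 0.09 in White Leghorn (SD, n = 3 each). The largest difference between breeds was 0.23 and no 95% interval of a pair reached beyond 0.52.

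BAAT, the enzyme that conjugates bile acids, had its highest values in the 3 Hwangbong birds. Its log2 expression was 7.72, 7.99 and 8.04 in Hwangbong, 7.54, 7.56 and 7.40 in Yeonsan Ogye, 7.40, 7.69 and 7.54 in Hyunin Black, and 7.38, 7.68 and 7.54 in Hoengseong Yakdak, against 7.44, 7.32 and 7.52 in White Leghorn. All 3 Hwangbong birds lay above all 12 others, the lowest of them just above the nearest Hyunin Black bird. The share of all features with such a pattern was not counted. Mean levels were 7.92 ± 0.17 in Hwangbong, 7.50 ± 0.09 in Yeonsan Ogye, 7.55 ± 0.14 in Hyunin Black and 7.53 ± 0.15 in Hoengseong Yakdak, against 7.43 ± 0.10 in White Leghorn (SD, n = 3 each).

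The BAAT difference of Hwangbong from White Leghorn was 0.49 ± 0.12 (SE; 95% interval 0.23 to 0.75; limma adjusted p = 0.0852), or 1.4-fold, and did not pass. Hwangbong exceeded Yeonsan Ogye by 0.42 ± 0.12 (adjusted p = 0.183) and Hyunin Black by 0.37 ± 0.12 (adjusted p = 0.306), and Hoengseong Yakdak differed from Hwangbong by -0.38 ± 0.12 (adjusted p = 0.152). The other 3 native breeds differed from White Leghorn by 0.07 to 0.12. With array weights in the model the Hwangbong difference was 0.53 and passed (limma adjusted p = 0.0350), but 264 features then passed instead of 106. It passed with no other setting (adjusted p of up to 0.180) and in none of the 15 fits with 1 bird left out (0.0605 to 0.259). Of the T and NK cell markers, UBASH3A, a T-cell signalling regulator, was higher in Hwangbong than in White Leghorn, by 0.72 (limma adjusted p = 0.0472). In that direction 0.339% of all features passed. The mean of the 10 T and NK cell markers was 6.26 to 6.53 in Hwangbong birds and 6.07 to 6.16 in White Leghorn birds. Of these 10, 7 had a difference above 0 and 3 below. In the same breeds macrophage markers averaged 9.60 to 9.77 against 9.48 to 9.57, with 3 of 9 below 0. Endothelium markers averaged 7.95 to 8.08 against 7.79 to 7.89, with 2 of 9 below 0. Red cell and thrombocyte markers averaged 5.87 to 6.01 against 5.68 to 5.79, with 2 of 6 below 0 and a median difference of only 0.035. HBAD, a globin gene, differed most of these 6, by 1.14, and by 1.07 to 1.49 from White Leghorn in the other native breeds. Hyunin Black had list means near those of Hwangbong: 6.31 against 6.36 for T and NK cells, 9.701 against 9.665 for macrophages and 8.01 against 8.02 for endothelium. The part of these cells in the BAAT values was not tested.

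**Figure D2:**
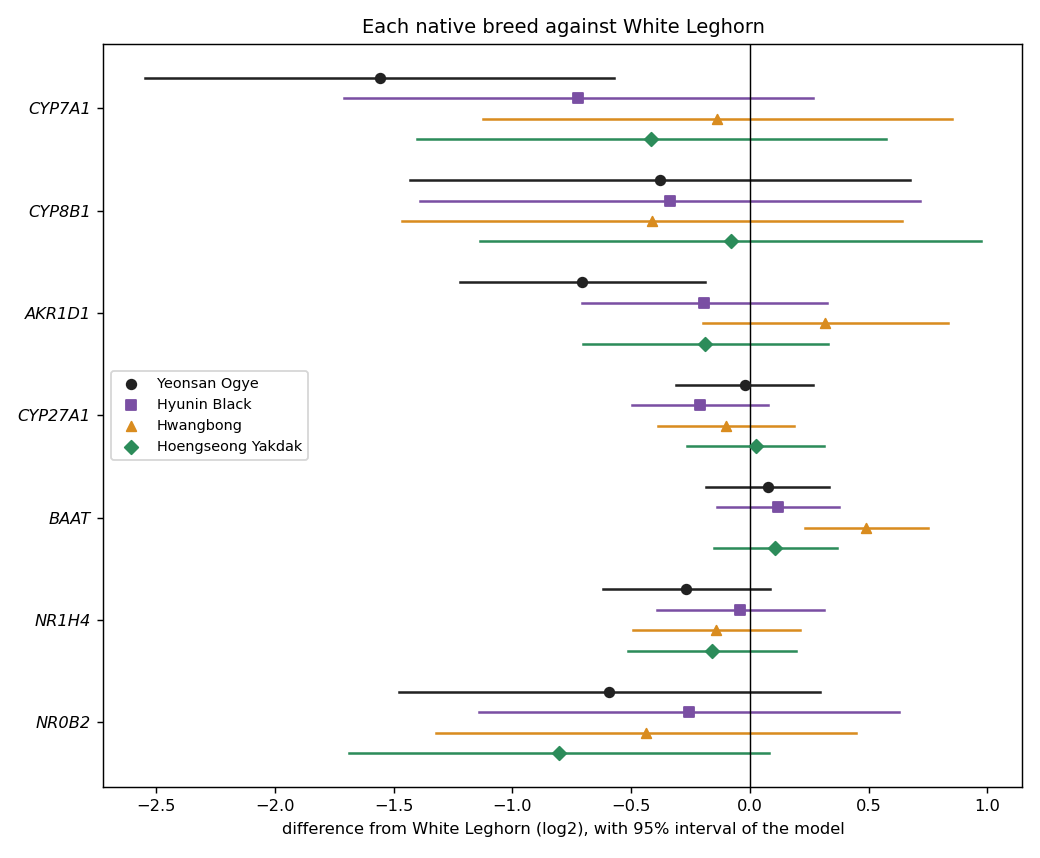
Difference in mean log2 expression of each native breed from White Leghorn (horizontal axis), with the 95% interval of the limma model, for the 7 bile acid genes; the vertical line marks no difference. The intervals of CYP7A1 and AKR1D1 in Yeonsan Ogye and of BAAT in Hwangbong lie off the line before adjustment over all features, and none passes after it.

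NR1H4, the bile acid receptor, varied little. It had 10.33, 10.73 and 10.09 in Yeonsan Ogye, 10.78, 10.50 and 10.56 in Hyunin Black, 10.55, 10.56 and 10.43 in Hwangbong, and 10.51, 10.20 and 10.76 in Hoengseong Yakdak, against 10.60, 10.77 and 10.59 in White Leghorn. Hwangbong birds lay just below White Leghorn birds, and the other pairs of breeds overlapped. Mean NR1H4 was 10.61 ± 0.15 in Hyunin Black, 10.51 ± 0.07 in Hwangbong, 10.49 ± 0.28 in Hoengseong Yakdak and 10.39 ± 0.32 in Yeonsan Ogye, against 10.65 ± 0.10 in White Leghorn (SD, n = 3 each). The largest difference between breeds was 0.27, and the widest 95% interval reached 0.62.

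NR0B2, the repressor that the receptor induces in mammals, was even among White Leghorn birds and scattered in the native breeds. It had 9.39, 8.22 and 9.59 in Yeonsan Ogye, 8.89, 9.53 and 9.78 in Hyunin Black, 8.68, 9.45 and 9.52 in Hwangbong, and 7.91, 9.05 and 9.60 in Hoengseong Yakdak, against 9.61, 9.71 and 9.65 in White Leghorn. All birds of Yeonsan Ogye, Hwangbong and Hoengseong Yakdak lay below the lowest White Leghorn bird, the highest of them only just (9.60 against 9.61). In Hyunin Black, 1 bird lay above the highest White Leghorn bird. Means were 9.40 in Hyunin Black, 9.22 in Hwangbong, 9.07 in Yeonsan Ogye and 8.85 in Hoengseong Yakdak, against 9.66 in White Leghorn. The SD was 0.46 to 0.86 in the native breeds, against 0.05 in White Leghorn, and this difference in spread was not tested. Hoengseong Yakdak differed from White Leghorn by -0.80 ± 0.41 (SE; 95% interval -1.69 to 0.08; limma adjusted p = 0.448), Yeonsan Ogye by -0.59 ± 0.41 (adjusted p = 0.745), and the mean of the native breeds by -0.52 ± 0.33 (adjusted p = 0.559). The Hoengseong Yakdak value was -0.33 without its bird 1, and the Yeonsan Ogye value was -0.17 without its bird 2.

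Across the gene set, birds of Yeonsan Ogye lay outside the White Leghorn range for 3 of 7 genes (CYP7A1, AKR1D1 and NR0B2, all below), where 13% of all features had breeds that did not overlap. For Hwangbong it was also 3 of 7 (BAAT above, NR1H4 and NR0B2 below; 18.7% of features). For Hyunin Black it was 1 (CYP27A1, below; 16.3% of features) and for Hoengseong Yakdak 1 (NR0B2, below; 17.7% of features). Hwangbong birds lay above Yeonsan Ogye birds for CYP7A1, AKR1D1 and BAAT (3 of 7; 15.2% of features), and Hoengseong Yakdak birds lay above Yeonsan Ogye birds for CYP7A1 and AKR1D1 (2 of 7; 14.8% of features). In the other native pairs it was 1 of 7 for Hyunin Black below Yeonsan Ogye (CYP27A1; 11.4% of features), 1 for Hwangbong above Hyunin Black (BAAT; 14.4%), 1 for Hoengseong Yakdak below Hwangbong (BAAT; 19.6%) and 0 for Hoengseong Yakdak and Hyunin Black (16%). Over the 70 tests, 16 (22.9%) had breeds that did not overlap, against 15.7% over all features. These comparisons share White Leghorn or Yeonsan Ogye birds, so they are not separate observations.

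The median difference of the 7 genes from White Leghorn was -0.38 in Yeonsan Ogye, -0.21 in Hyunin Black, -0.14 in Hwangbong and -0.16 in Hoengseong Yakdak, with all-feature medians of -0.01 or nearer to 0. In Yeonsan Ogye and Hyunin Black 6 of 7 differences were below 0, and in Hwangbong and Hoengseong Yakdak 5 of 7, all measured against the same 3 White Leghorn birds. The mean of the 7 genes per bird was 8.40 to 8.96 in Yeonsan Ogye, 8.93 to 9.12 in Hyunin Black, 8.98 to 9.36 in Hwangbong and 8.84 to 9.16 in Hoengseong Yakdak, against 9.19 to 9.32 in White Leghorn. Yeonsan Ogye bird 2 was the lowest of its breed for 4 genes (CYP7A1, CYP8B1, AKR1D1 and NR0B2) and the lowest of all 15 birds for CYP7A1 and AKR1D1. Without that bird the CYP7A1 difference from White Leghorn was -1.14.

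**Figure D3:**
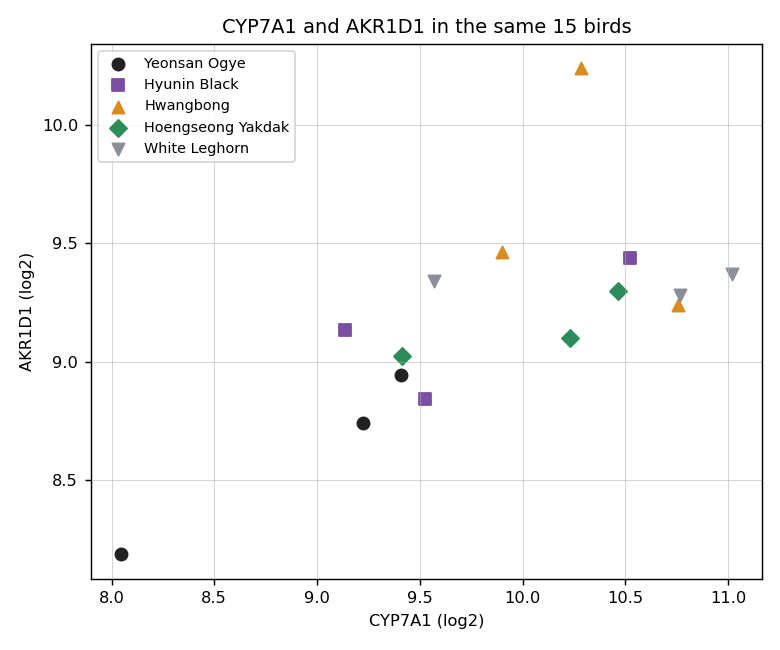
Log2 expression of AKR1D1 (vertical axis) against CYP7A1 (horizontal axis) in the 15 birds, marked by breed. Yeonsan Ogye bird 2 is the lowest point on both axes, and the Hwangbong bird with the highest AKR1D1 has the middle CYP7A1 value of its breed.

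The 7 genes did not move as a block from bird to bird. Over the 15 birds, which share breeds and a normalisation, the 21 pairs of genes had Pearson correlations from -0.44 to 0.69 with a median of 0.03. These are given as a description, without a test. Only CYP7A1 and AKR1D1 passed 0.5 in size, with a Pearson r of 0.69 and a Spearman rho of 0.68. The Pearson r was 0.50 in the 13 birds left without Yeonsan Ogye bird 2 and White Leghorn bird 2, the birds farthest from the median of CYP7A1, and 0.41 after removing breed means. With breed means removed, the largest of the 21 was instead that of CYP27A1 and BAAT, 0.67, a pair with an r of 0.14 over all 15 birds. CYP7A1 and NR0B2, its repressor in mammals, had a Pearson r of 0.23, and of 0.14 within breeds. Without Yeonsan Ogye bird 2 and White Leghorn bird 2 the sign turned, with an r of -0.26.

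Among 11521 other named genes, those most like CYP7A1 over the 15 birds were PEPD, a dipeptidase (Pearson r = 0.87), FBXO45, an F-box protein (0.85), and MASP2, a complement protease made by the liver (0.83). The gene with the lowest r was SEPTIN5, a septin (-0.86). Within breeds the 4 had an r of 0.76 to 0.91 in size. Those most like BAAT were SMARCD2, a chromatin remodelling subunit (0.84), NDUFS8, a subunit of respiratory complex I (0.82), and SYT15, a synaptotagmin (0.82), and ZBTB34, a zinc finger protein, had the lowest r (-0.89). Within breeds these were 0.39 for SMARCD2, 0.67 for NDUFS8, 0.62 for SYT15 and -0.83 for ZBTB34. Such extremes are picked out of many genes over few birds and carry no test.

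Few genes of the wider pathway passed a test, and at the low shares of all features this does not set them apart. Lists of synthesis enzymes, transporters and regulators added 60 measured genes, and 0 of them passed the F test, against 1.6% of all features. An unadjusted p under 0.05 was found for 12 of the 60 (20%), against 16.1% of all features. By list these were 5 of 14 other synthesis genes (35.7%), 4 of 23 transport genes (17.4%) and 3 of 23 other regulators (13.0%). In the single comparisons 1 gene passed for Hoengseong Yakdak against Hwangbong, ABCG5, and 1 for Hoengseong Yakdak against White Leghorn, MAPK8, both lower in Hoengseong Yakdak. In the same direction 0.825% of all features passed against Hwangbong and 0.262% against White Leghorn. A count of 1 of 60 in each is too small to say whether the lists differ from these shares.

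**Figure D4:**
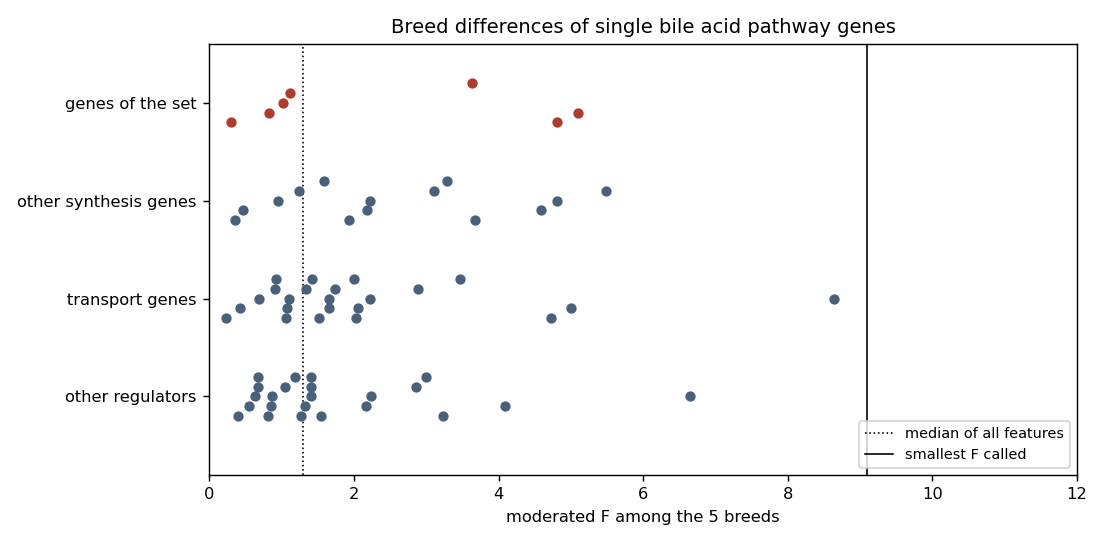
Moderated F among the 5 breeds (horizontal axis, no unit) for each bile acid gene and for the other synthesis, transport and regulator genes, 1 point per gene. The dotted line is the median of all features (1.3) and the solid line the smallest F that passed (9.09); the gene nearest to it is ABCG5.

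ABCG5 forms with ABCG8 the pump that secretes cholesterol and plant sterols into bile. Its log2 expression was 6.11, 5.19 and 4.90 in Hoengseong Yakdak, 7.56, 7.48 and 7.06 in Hwangbong, 6.80, 6.14 and 7.75 in Yeonsan Ogye and 6.93, 7.20 and 7.04 in Hyunin Black, against 7.04, 6.94 and 6.26 in White Leghorn. The 3 Hoengseong Yakdak birds lay below all 12 others, the highest of them only just (6.11 against 6.14 in a Yeonsan Ogye bird). The share of all features with such a pattern was not counted. The difference from Hwangbong was -1.97 ± 0.36 (SE; 95% interval -2.75 to -1.18; limma adjusted p = 0.0151), a mean 3.91-fold higher in Hwangbong. It was -1.66 from Hyunin Black (adjusted p = 0.0792), -1.50 from Yeonsan Ogye (adjusted p = 0.115) and -1.35 ± 0.36 from White Leghorn (adjusted p = 0.122), none of which passed. The call against Hwangbong was lost without Hoengseong Yakdak bird 2 or 3 or without Hwangbong bird 1 or 2, with adjusted p of up to 0.0736 and differences between -2.32 and -1.72 over all 15 birds left out in turn.

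ABCG8, named here after its values were seen, had means of 4.01 ± 0.63 in Hoengseong Yakdak, 4.99 in Hwangbong, 5.45 in Yeonsan Ogye and 4.85 in Hyunin Black, against 4.59 in White Leghorn, and passed no comparison. Over the 15 birds ABCG5 and ABCG8 had a Pearson r of 0.71 and a Spearman rho of 0.57, and the Pearson r was 0.50 in the 13 birds without Hoengseong Yakdak birds 2 and 3. Of 12 bile duct markers, 10 had a difference of Hoengseong Yakdak from Hwangbong above 0, with a median of 0.20. SPP1 and CDH1 passed, by 1.01 ± 0.19 (limma adjusted p = 0.0149) and 0.67 ± 0.11 (adjusted p = 0.00549). Between Hoengseong Yakdak and Hwangbong 0.634% of all features passed as higher and 0.825% as lower. SPP1 was also lower in Hwangbong than in Hyunin Black, with a difference of -0.96 (limma adjusted p = 0.0453). The mean of the 12 was 6.36 to 6.74 in Hoengseong Yakdak birds and 6.24 to 6.46 in Hwangbong birds. Of 10 T and NK cell markers, UBASH3A was lower in Hoengseong Yakdak than in Hwangbong, with a difference of -0.92 (adjusted p = 0.00577), and 8 of the 10 had a difference below 0, with a median of -0.30. Their mean was 5.85 to 6.19 in Hoengseong Yakdak birds and 6.26 to 6.53 in Hwangbong birds. In the same breeds B cell markers averaged 6.279 to 6.486 against 6.585 to 7.065, with 1 of 5 above 0. Macrophage markers averaged 9.394 to 9.600 against 9.605 to 9.767, with 3 of 9 above 0. The part of these cells in the ABCG5 values was not tested.

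MAPK8, the kinase JNK1 that lies between FGF receptor signalling and CYP7A1 in mammals, had 6.76, 6.66 and 6.64 in Hoengseong Yakdak, against 7.14, 7.26 and 7.14 in White Leghorn. The difference was -0.50 ± 0.10 (SE; 95% interval -0.71 to -0.29; limma adjusted p = 0.0403). Means in the other native breeds were 7.0 in Yeonsan Ogye, 6.99 in Hyunin Black and 6.94 in Hwangbong, between these groups. The call was lost in 11 of 15 fits with 1 bird left out, with adjusted p of up to 0.130, in the fit of the 6 arrays compared alone (0.143) and with the bird number as a block (0.0536).

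**Figure D5:**
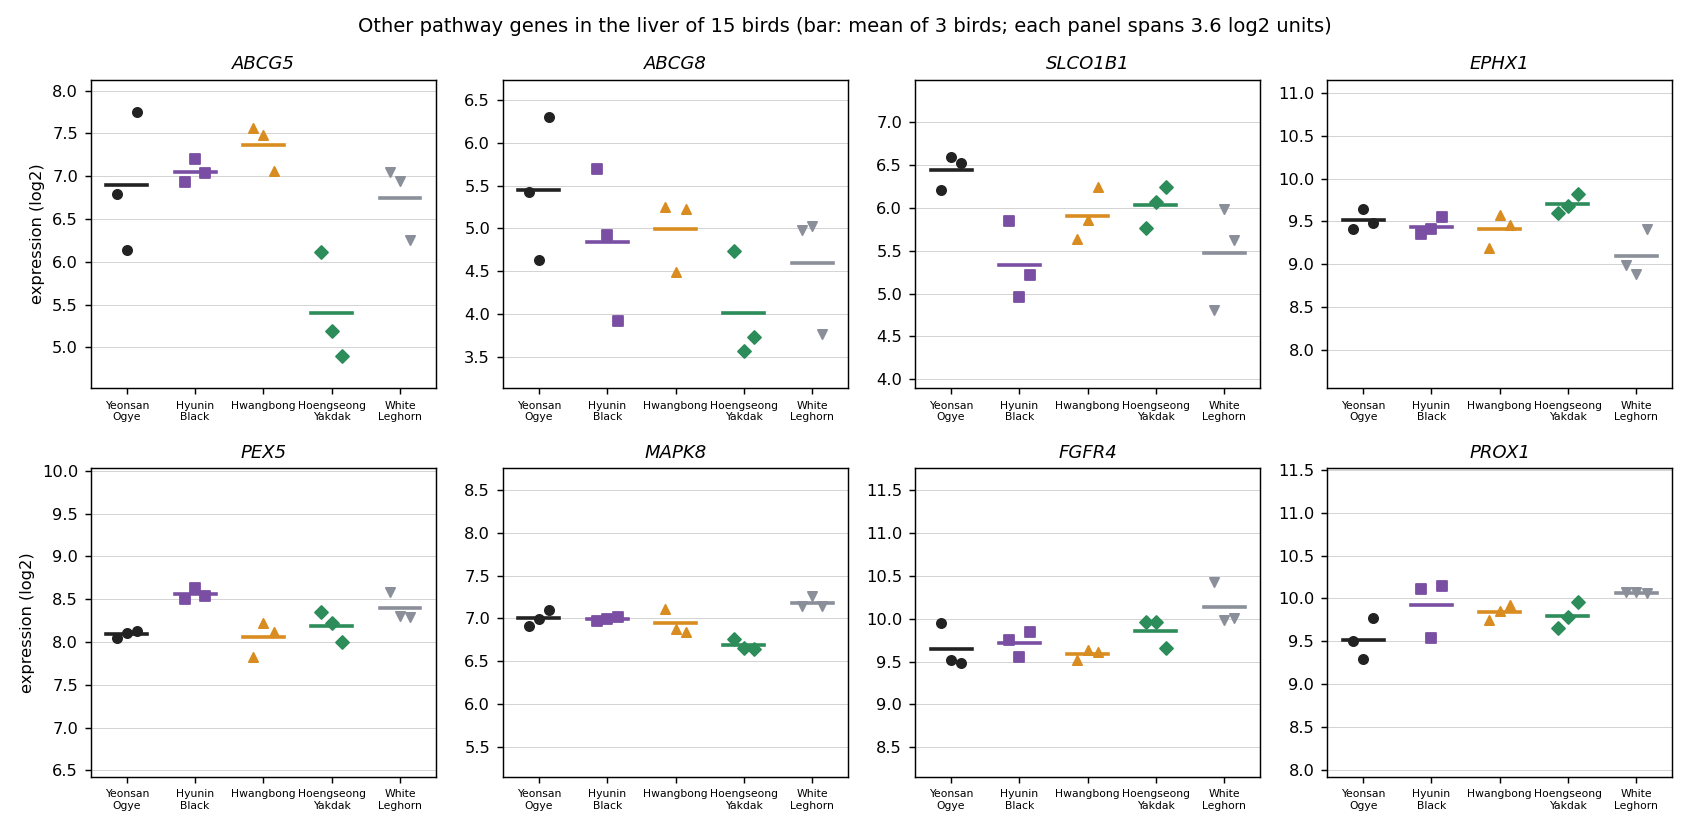
Log2 expression (vertical axis) of 8 other pathway genes in each of the 15 birds, by breed, with the mean of 3 birds as a bar; every panel spans the same number of log2 units. The Hoengseong Yakdak birds are the lowest in ABCG5 and in MAPK8, and Yeonsan Ogye has the highest mean in SLCO1B1.

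The remaining pathway genes with the largest F did not pass in any comparison. PEX5, the import receptor of the peroxisomes where bile acid side chains are shortened, had an F of 5.49 (adjusted p = 0.143), with Hwangbong differing from Hyunin Black by -0.50 ± 0.13 (limma adjusted p = 0.153). SLCO1B1, an uptake transporter of the OATP family, had 6.21, 6.59 and 6.53 in Yeonsan Ogye against 4.81, 5.98 and 5.63 in White Leghorn. That difference was 0.97 ± 0.28 (adjusted p = 0.257), and Hyunin Black differed from Yeonsan Ogye by -1.10 ± 0.28 (adjusted p = 0.216). EPHX1, the microsomal epoxide hydrolase, had 9.60, 9.68 and 9.82 in Hoengseong Yakdak against 9.0, 8.89 and 9.41 in White Leghorn, a difference of 0.60 ± 0.14 (adjusted p = 0.0776).

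FGFR4 encodes the hepatocyte receptor through which an intestinal FGF hormone represses CYP7A1 in mammals. All 12 native birds had lower values than every White Leghorn bird, where 1.34% of all features did not overlap in either direction. The highest native bird had 9.97 and the lowest White Leghorn bird 9.98. The native mean differed from White Leghorn by only -0.44 ± 0.12 (limma adjusted p = 0.164), and Hwangbong by -0.55 ± 0.15 (adjusted p = 0.134). PROX1, a corepressor of CYP7A1 in human liver cells, differed by -0.55 ± 0.16 in Yeonsan Ogye from White Leghorn (adjusted p = 0.258). Over the 15 birds and 25 measured regulators, PROX1 had the highest Pearson r with CYP7A1, 0.68 (Spearman rho 0.61), which was 0.44 without the 2 birds farthest from the CYP7A1 median and 0.49 within breeds. HNF4A, an activator of CYP7A1 named here after its values were seen, followed with 0.64 (Spearman rho 0.49), and its r was 0.24 without those 2 birds and 0.68 within breeds. The order of the regulators changed with the measure. Without those 2 birds NR1H3 had the highest r, 0.61, and within breeds NR5A2 had it, 0.69. Both were likewise named after their values were seen.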

How the data were processed

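Liver RNA of 15 birds was hybridised as biotin-labelled single-stranded cDNA to Affymetrix chicken gene arrays, 1 array per bird. Per the submitters' processing notes, the deposited log2 expression values were made by RMA, with version 1.3.1 of the Affymetrix Expression Console. Probe filters and detection calls are not given in the sources used here, so dim and bright features could not be marked. The values ranged from 0.55 to 14.52 and were used as deposited.

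Symbols came from the platform annotation: 12300 features had 1 symbol, 256 several and 5752 none. The feature with the highest mean stood for a gene. The symbols of the 7 genes are the current RefSeq ones for their Entrez IDs (assembly GRCg7b). Probe positions and breed variants under probes were not checked, and no sequence was used.

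One linear model of breed means over the 15 birds was fitted (R 4.3.3; limma 3.58.1, functions lmFit and eBayes; 10 residual and 3.89 prior degrees of freedom), with a moderated F among 5 breeds and 11 two-sided contrasts: each native breed and their mean against White Leghorn, and the 6 native pairs. P-values were Benjamini-Hochberg adjusted over 18308 features with a threshold of 0.05. The fit was tested on simulated data. Precision is limited by the number of arrays: 3 birds against 3 allow no exact permutation p under 0.1. Since the labels call arrays of a breed biological replicates, p-values rest on bird-to-bird spread. Neither batch nor date is given in the sources used here.

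The genes and lists were chosen with earlier results of these data known. Beside the 7 genes, the text names each gene of 3 pathway lists that passed a comparison, or the 3 with the largest F of a list, and the genes most and least correlated with CYP7A1 and BAAT. The 7 genes were counted in the lists, so BAAT and AKR1D1 took places in the synthesis list and only PEX5 was added from it. ACOX2 (F = 4.81) and CH25H (F = 4.58) came next and are not described. Of the symbols listed, 19 of 24 synthesis, 23 of 32 transport and 25 of 41 regulator genes were measured. Alternatives were trend and robust moderation, further quantile normalisation, median centring, array weights, leaving out low features, 1 feature per gene, only the arrays compared, the replicate number as a block, and each array left out in turn.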

Additional observations from a re-analysis of the deposited data

How the results depend on the processing

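The count of bile acid genes past the threshold was 0 in all 12 tests. Over the 15 fits with 1 bird left out it was 0 in all 180 combinations of test and fit (lowest 0, highest 0). With another setting it was 0 in 93 of 94 combinations of test and setting. These combinations share birds and fits. The exception was Hwangbong against White Leghorn with array weights, where the count was 1 (BAAT, adjusted p = 0.0350) and 264 features passed instead of 106. The CYP7A1 difference of Hwangbong from White Leghorn ranged from -0.58 to 0.15 with 1 bird left out, and was 0.15 without White Leghorn bird 2, 0.02 without White Leghorn bird 3 and 0.07 without Hwangbong bird 1. The CYP7A1 difference of Yeonsan Ogye from White Leghorn ranged from -2.0 to -1.14, with adjusted p from 0.15 to 0.593. Adjusted p with 1 bird left out was 0.0859 to 0.261 for AKR1D1 in Hwangbong against Yeonsan Ogye and 0.0605 to 0.259 for BAAT in Hwangbong against White Leghorn. Over all features, the F test passed 293 features, 121 to 281 with 1 bird left out and 202 to 463 with another setting. The same counts were 35, 12 to 42 and 5 to 53 for Yeonsan Ogye, 30, 4 to 41 and 5 to 48 for Hyunin Black, 106, 40 to 127 and 40 to 264 for Hwangbong, and 101, 24 to 112 and 34 to 163 for Hoengseong Yakdak, each against White Leghorn. For Hoengseong Yakdak against Hwangbong they were 267, 130 to 295 and 172 to 458, and for the native mean 79, 16 to 93 and 51 to 118. For the other native pairs they were 54, 20 to 86 and 27 to 71 (Hoengseong Yakdak against Hyunin Black), 58, 26 to 63 and 19 to 85 (Hoengseong Yakdak against Yeonsan Ogye), 68, 30 to 67 and 15 to 112 (Hwangbong against Hyunin Black), 58, 18 to 75 and 25 to 109 (Hwangbong against Yeonsan Ogye), and 9, 4 to 47 and 4 to 12 (Hyunin Black against Yeonsan Ogye). Breeds share bird numbers 1 to 3 in the labels. The deviations of same-numbered birds correlated above 0.1 in 8 of 30 pairs (-0.0859 to 0.239). Birds of different numbers were not summarised beside them, so these values cannot tell whether the numbers pair birds. With the replicate block the F test passed 301 features and 0 bile acid genes. A fit of only the arrays compared does not apply to the F test or the native mean. No bile acid gene had another single-symbol feature to try, and features with several symbols were not searched. Signal over background was not given, so a limit from dim features could not be set.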

Other observations

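A few pathway genes spread widely between birds of one breed. DIO2, the deiodinase that activates thyroid hormone downstream of a bile acid receptor in mammals, had the largest within-breed SD of the regulators, 1.59, and a range of 5.14 log2 units. Its values were 9.57, 11.37 and 8.71 in Yeonsan Ogye, 7.67, 10.05 and 7.96 in Hyunin Black, 10.15, 7.22 and 7.91 in Hwangbong, and 11.37, 7.69 and 8.62 in Hoengseong Yakdak, against 6.23, 9.73 and 7.45 in White Leghorn. ABCB1, an export pump, had the largest within-breed SD of the transport genes, 0.86, with means of 9.89 in Yeonsan Ogye, 8.36 in Hyunin Black, 8.26 in Hwangbong and 8.02 in Hoengseong Yakdak, against 9.25 in White Leghorn. All 3 Yeonsan Ogye birds lay above all 12 others in ABCB1 (F = 3.47, limma adjusted p = 0.275), a pattern whose share over all features was not counted. Among the synthesis genes other than CYP8B1 and CYP7A1, whose spread is larger, it was STARD5, a sterol-binding protein, with 0.55. These 3 genes were named after their values were seen.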
